A study of Mus musculus with 4 samples.

Results

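The mouse Zfp genes, most of which encode C2H2 zinc finger proteins, were examined in RNA immunoprecipitation sequencing (RIP-seq) of the transcription factor RUNX1. The genes were those annotated as protein-coding, carrying a symbol made of Zfp and a number with at most 1 letter after it, and reaching at least 20 raw counts in each of the 4 libraries. Of the 391 protein-coding genes with such a symbol in the table, 120 met this rule, 121 more were tested but missed the minimum in at least 1 library, and 150 were not tested, of which 35 had no count at all. The minimum was read from the same counts as the comparison, and the lowest of a gene's 4 counts lay in a Runx1 library for 110 of the 120 genes. Membership was thus set mostly by the Runx1 libraries, which were the shallower ones. Zfp141, Zfp143 and Zfp956 stood just inside, with a lowest count of 20, while Zfp13, Zfp395, Zfp397, Zfp444, Zfp553, Zfp800 and Zfp846 stood just outside, with a lowest count of 19.

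C2H2 zinc finger proteins form the largest family of transcription factors in mammals. Each finger is a short fold held by a zinc ion between paired cysteines and histidines. Tandem fingers, joined by a short conserved linker, can together read a DNA sequence. Many of them carry a KRAB domain, which recruits the corepressor TRIM28 and with it heterochromatin proteins and histone methyltransferases, and such proteins silence retroelements and protect imprints in the early embryo. Other members of the family bind RNA, regulate splicing or act as ubiquitin or SUMO ligases. In RIP-seq an antibody to a protein pulls down that protein with the RNA bound to it, and a parallel pull-down with IgG, a non-specific antibody, gives the background. The measurement here is of the RNAs of the Zfp genes, not of their proteins.

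Both groups came from Cd31+ cells, a surface marker of endothelial and some blood cells, sorted from the caudal part of wild-type C57BL/6 embryos at E10.0. There were 2 libraries made with a Runx1 antibody and 2 made with IgG, and the question was which RNAs were more or less abundant with the Runx1 antibody. No knockout, transgene or treatment is named for either group. Nothing in the labels says whether the 2 libraries of a group came from separate embryos, and the spread on which the p-values rest may be technical.

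Gene totals were 1675488 and 1887301 in the Runx1 libraries and 3843318 and 2482045 in the IgG libraries, in which 16929 to 18401 genes had a count. Levels are given as CPM, a gene's count scaled to a common library total. All 8 endothelial markers were tested, and their summed level was 1524 and 1281 CPM in the Runx1 libraries and 1570 and 1461 CPM in the IgG libraries, so the markers of the sorted cell type were present in every library. The 5 erythroid markers summed to 839.8 and 841 CPM in the Runx1 libraries against 479 and 448 CPM with IgG, with all 5 above 0 in log2 fold change and none at 0 counts. The 5 neural markers summed to 633 and 518 CPM against 388 and 380 CPM, with none at 0. The 5 macrophage markers summed to 50.7 and 168 CPM against 24.5 and 25 CPM, with Adgre1, C1qb and Lyz2 each at 0 in at least 1 library. The 6 blood progenitor markers summed to 110 and 190 CPM against 195 and 189 CPM, with Gfi1 and Spi1 at 0 in at least 1 library. The 5 mesenchymal markers ranged from 994 to 1101 CPM and the 4 epithelial markers from 104 to 152 CPM over the 4 libraries, with none at 0. Of the 34 marker genes tested, 0 passed edgeR's test, where 0.306% of all genes were higher and 0.339% lower. An unadjusted p under 0.05 was found for 8 on the higher side and 2 on the lower side, beside 6.88% and 7.35% of all genes. DESeq2 called Hba-x, Hbb-y and Csf1r higher, beside 4.34% of the genes to which it gave an adjusted p, while limma-voom called 0. The part of other cell types in the results below was not tested. In such bulk pull-downs, fewer cells of a type, less RNA per cell and less RNA recovered with an antibody cannot be told apart.

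Of the 120 Zfp genes, 2 were lower with the Runx1 antibody (Zfp871 and Zfp451) and 0 were higher, by edgeR's quasi-likelihood test with Benjamini-Hochberg adjustment over 12401 genes at 0.05. Over all genes tested, 0.339% were lower and 0.306% higher. Of the 6981 protein-coding genes that met the same count minimum, 41 were lower and 34 higher, all with a mean of 100 CPM or more. At an unadjusted p under 0.05, 23 of the 120 lay on the lower side and 2 on the higher side, where all genes tested gave 7.35% and 6.88%. The 6981 protein-coding genes gave 688 lower and 604 higher at that level. DESeq2 called 14 of the 120 lower and 0 higher, beside 6.07% lower and 4.34% higher of the 5669 genes to which it gave an adjusted p. How many of the 120 had such an adjusted p was not counted, so these shares have unlike denominators. With limma-voom, 5 were lower and 0 higher, beside 0.968% and 0.823% of all genes. Without Runx1 replicate 1, edgeR called 11 of the 120 lower and 0 higher, beside 2.48% lower and 1.75% higher of all genes. Without Runx1 replicate 2, it called 5 lower and 1 higher, beside 1.55% and 1.14%. Calls thus rose over all genes in these fits as well. The counts that chose the genes are the counts tested, so these shares are descriptions of the genes chosen.

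Below that threshold, most of the Zfp genes lay on the lower side. The median log2 fold change (Runx1 antibody over IgG) was -0.22, with the middle range from -0.71 to 0.09 and extremes of -1.85 (Zfp775) and 1.68 (Zfp260). It was below 0 for 80 of the 120 genes, or 66.7%. The median was -0.37 without Runx1 replicate 1 and -0.36 without Runx1 replicate 2. The 6981 protein-coding genes that met the same count minimum had a median of 0.02 and 48.8% below 0. Both Runx1 libraries lay below both IgG libraries in 47 of the 120 genes, or 39.2%, and above them in 11, or 9.17%. Over all genes tested, the same patterns were found in 21.3% and 24.1%, and over the 6981 protein-coding genes in 24.2% and 26.2%. The Zfp genes took 1.11% and 1.06% of gene counts in the Runx1 libraries and 1.44% and 1.43% in the IgG libraries, so the pairs did not overlap.

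**Figure D1:**
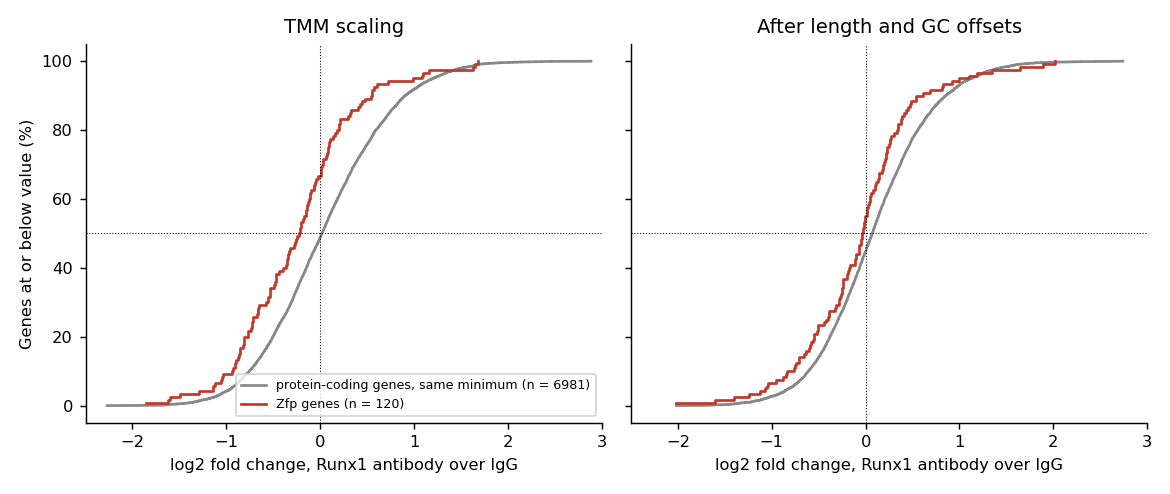
Cumulative share of genes (vertical axis, %) at or below each log2 fold change (horizontal axis, Runx1 antibody over IgG), for the 120 Zfp genes in red and the 6981 protein-coding genes with the same count minimum in grey. With TMM scaling (left) the red curve lies to the left of the grey one, with medians of -0.22 and 0.02, and with length and GC offsets (right) the medians are -0.03 and 0.07.

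The medians of each library showed the same shift. On the log2 CPM scale with TMM scaling, the median Zfp gene stood at 5.75 and 5.71 in the Runx1 libraries and at 6.00 and 6.03 in the IgG libraries. The median of the protein-coding genes with the same count minimum stood at 5.95, 5.98, 5.96 and 5.93 in the same order. The Zfp medians were separated by antibody, and those of the comparison genes overlapped.

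Zfp871, a KRAB zinc finger gene with 15 finger patterns, gave the smallest p of the family. Its level was 318 and 273 CPM in the Runx1 libraries and 708 and 709.9 CPM in the IgG libraries, from 532, 516, 2722 and 1762 counts. Both Runx1 libraries were far below both IgG libraries, which lay close together. It was 2.45-fold lower, with a log2 fold change of -1.29 ± 0.15 (SE) and an edgeR adjusted p of 0.0159. The gene lies on the minus strand at chr17:32765496-32788287 (GRCm38), and its longest transcript of 10851 bases holds 8856 bases of 3′ UTR.

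Zfp451, which encodes a SUMO ligase, was the other gene that passed. Its level was 315 and 258 CPM in the Runx1 libraries and 589 and 573 CPM in the IgG libraries, again with no overlap between antibodies. It was 2.07-fold lower, with a log2 fold change of -1.05 ± 0.17 and an edgeR adjusted p of 0.0417. It lies on the minus strand at chr1:33761545-33814595 (GRCm38), with a longest transcript of 11876 bases. Both genes lost the call with length and GC offsets, where the log2 fold changes were -0.66 and -0.45. Both also lost it with a replicate block, where the log2 fold changes were -1.30 and -1.05 and 0.0161% of all genes were called higher and 0.0% lower. Both kept it when any 1 library was left out.

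The other genes among the 10 with the smallest p on the lower side did not pass the edgeR test. In each of them both Runx1 libraries lay below both IgG libraries, which choosing by p from the same libraries favours. That pattern was found in 21.3% of all genes tested and 24.2% of the protein-coding genes with the same count minimum. Zfp292, which encodes a large protein with 14 finger patterns, stood at 434 and 368 CPM in the Runx1 libraries and 624 and 793 CPM in the IgG libraries. Its log2 fold change was -0.85 ± 0.17, with an edgeR adjusted p of 0.0740. Zfp148 (ZBP-89), which binds GC-rich promoters, stood at 275 and 210 CPM against 411 and 448 CPM. The IgG pair of Zfp148 was again the higher one, with a log2 fold change of -0.85 ± 0.19 and an edgeR adjusted p of 0.0985. Zfp518a had the widest ratio of the 10, at 33.4 and 31.3 CPM against 92.6 and 99.9 CPM. Its log2 fold change was -1.60 ± 0.37, with an edgeR adjusted p of 0.108. Zfp367 stood at 96.7 and 75.8 CPM against 189 and 183 CPM, a log2 fold change of -1.14 ± 0.27. Replicates of each antibody lay close together for both of these genes. Zfp367 shares a near-identical stretch with 1 other gene, which overlaps it on the opposite strand. Zfp280d stood at 349 and 232 CPM against 521 and 512 CPM, a log2 fold change of -0.86 ± 0.21. Zfp369, whose product binds the neurotrophin receptor p75, stood at 153 and 195 CPM against 297 and 286 CPM, a log2 fold change of -0.77 ± 0.21. Zfp644, whose product works with the histone methyltransferases G9a and GLP, stood at 445 and 380 CPM against 581 and 605 CPM, a log2 fold change of -0.55 ± 0.15. Zfp869, a KRAB gene, stood at 81.8 and 50.9 CPM against 149 and 137 CPM, a log2 fold change of -1.14 ± 0.33. The edgeR adjusted p of these last 5 genes ran from 0.108 to 0.181. With length and GC offsets the log2 fold changes were nearer 0 for Zfp292 (-0.25), Zfp148 (-0.24), Zfp518a (-0.96), Zfp280d (-0.32) and Zfp644 (-0.03), and moved less for Zfp367 (-1.04), Zfp369 (-0.56) and Zfp869 (-1.24).

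On the higher side no Zfp gene passed, and 9 of the 10 with the smallest p there had a mean under 100 CPM. Of the 4736 protein-coding genes with the same count minimum below that level, edgeR called 0 in either direction. Zfp62, with 25 finger patterns, stood at 55.5 and 57.2 CPM in the Runx1 libraries and 13.5 and 21.8 CPM in the IgG libraries. Its Runx1 libraries lay close together and above both IgG libraries, with a log2 fold change of 1.65 ± 0.51 and an edgeR adjusted p of 0.203. Zfp260, a partner of GATA4 in the heart, stood at 96.7 and 36.0 CPM against 30.7 and 9.27 CPM. The libraries of each antibody differed by more than a factor of 2 for Zfp260, and its log2 fold change of 1.68 ± 0.69 had an edgeR adjusted p of 0.320. It ranged from 0.78 to 2.78 when 1 library was left out. Zfp143, a factor for transcription of small nuclear RNA genes, stood at 59.1 and 10.6 CPM against 13.3 and 8.46 CPM, so that 1 Runx1 library carried the difference and the groups overlapped. Zfp780b stood at 34.0 and 42.9 CPM against 18.7 and 16.5 CPM, and shares near-identical stretches with 10 other genes. Zfp839, in whose protein no C2H2 finger pattern was found, stood at 31.6 and 41.3 CPM against 21.1 and 10.9 CPM. Zfp536, which represses neuronal differentiation driven by retinoic acid, stood at 86.5 and 88.5 CPM against 57.0 and 58.0 CPM, with tight pairs and a log2 fold change of 0.58 ± 0.34. Zfp319, Zfp422, Zfp952 and Zfp1 completed the 10, with log2 fold changes of 1.08 ± 0.65, 0.43 ± 0.29, 0.99 ± 0.72 and 0.60 ± 0.54. Leaving out 1 library moved Zfp422 between 0.08 and 0.66 and Zfp952 between 0.36 and 1.40. The edgeR adjusted p of the genes from Zfp780b to Zfp1 ran from 0.423 to 0.697.

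**Figure D2:**
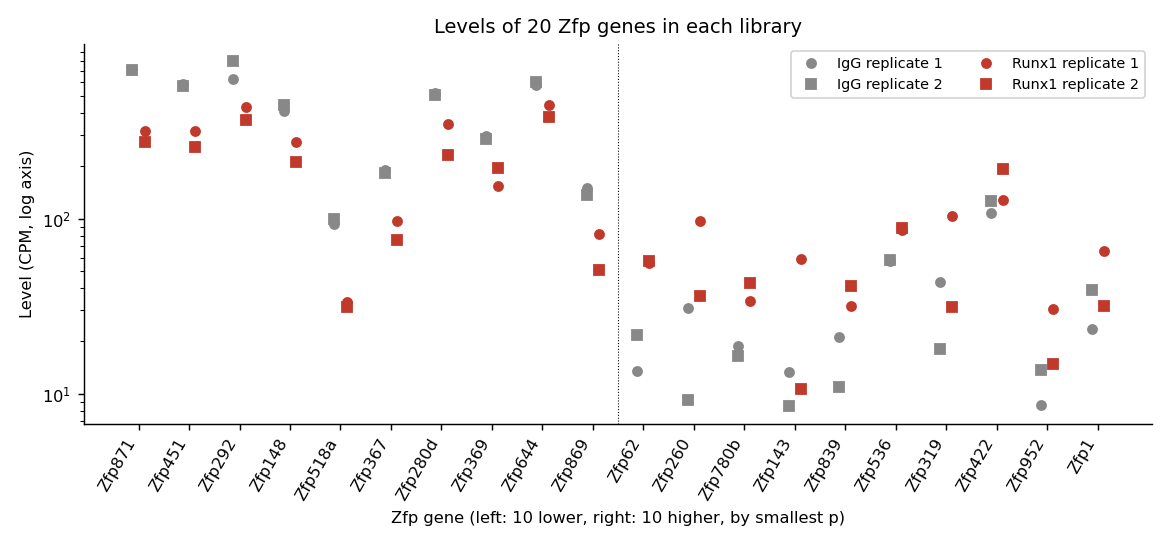
Level (CPM, log axis) of 20 Zfp genes in each library, the 10 with the smallest p on the lower side at the left and the 10 on the higher side at the right; circles are replicate 1, squares replicate 2, red the Runx1 antibody and grey IgG. The left genes show red below grey in every case, from Zfp871 (318 and 273 against 708 and 709.9 CPM) to Zfp869, while several right genes, such as Zfp143, overlap. Choosing genes by p from the same libraries favours such separation.

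Among the genes that met the count minimum, the fold change varied with the level of the gene. The 32 Zfp genes with a mean of 100 CPM or more had a median log2 fold change of -0.48, with 29 of 32 below 0, and the 88 below that level had a median of -0.13, with 51 of 88 below 0. Among the protein-coding genes with the same count minimum, the corresponding medians were -0.15 and 0.11, with 61.1% and 43.0% below 0. Across the 120 genes the Spearman correlation of log2 fold change with mean CPM was -0.44, and across the 6981 comparison genes it was -0.23. Genes share libraries and depth and are not independent replicates, so these correlations are descriptions. The lowest count lay in a Runx1 library for 110 of the 120 genes. Near the count minimum the rule thus leaves out genes with low Runx1 counts more readily. Its part in the difference by level, here and in the comparison genes, was not tested. Counting error is smaller for the higher genes, and both genes that passed are among the 32.

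**Figure D3:**
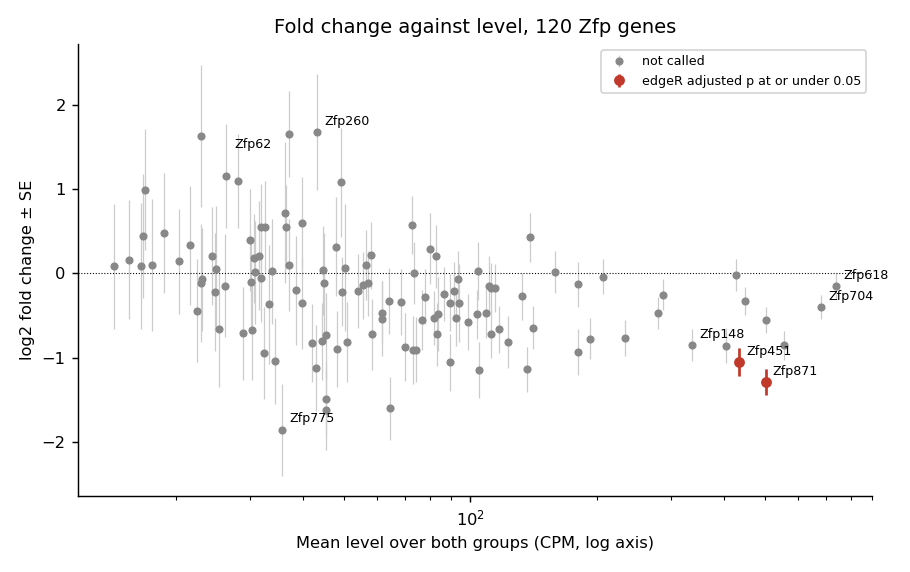
Log2 fold change ± SE (vertical axis) against mean level over both groups (CPM, log axis) for the 120 Zfp genes; red points are the 2 with an edgeR adjusted p at or under 0.05. At 100 CPM or more, 29 of 32 genes lie below 0 and the error bars are short. The values above 1, such as Zfp62 and Zfp260, belong to genes under 100 CPM with long bars. The count minimum, set mostly by the Runx1 libraries, limits low Runx1 values among the genes at the left.

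Per kilobase of the longest transcript, the median Zfp gene stood at 10.9 CPM per kb, in a range from 1.33 to 101. The highest was Zfp740, at 100.7 CPM per kb, followed by Zfp207 (BuGZ, a spindle protein that binds Bub3) at 87.4 and Zfp618 (a partner of the 5-hydroxymethylcytosine reader UHRF2) at 83.8. Next came Zfp644 at 80.4, Zfp369 at 79.9 and Zfp280d at 68.3 CPM per kb. In CPM, Zfp740 stood at 406 and 449 in the Runx1 libraries and at 491 and 362 in the IgG libraries. Zfp207 stood at 250.1 and 279 CPM against 325 and 293 CPM. Zfp618 stood at 670 and 748 CPM against 687 and 854 CPM. The antibodies overlapped for Zfp740 and Zfp618 but not for Zfp207, and the log2 fold changes of the 3 genes were -0.02 ± 0.19, -0.15 ± 0.15 and -0.25 ± 0.19 in the order Zfp740, Zfp618 and Zfp207.

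Protein features of the family were compared next. A KRAB A box pattern was found in 41 of the 120 proteins and none in 79. The median log2 fold change was -0.12 for the KRAB genes, with 24 of 41 below 0, and -0.27 for the others, with 56 of 79 below 0; each of these groups held 1 of the 2 genes that passed. C2H2 finger patterns were found in 117 proteins, up to 33 in Zfp462, and not in Zfp330, Zfp839 and Zfp503. Genes with 1 to 4 fingers had a median log2 fold change of -0.21 (25 genes), those with 5 to 9 of -0.30 (38 genes), those with 10 to 14 of -0.54 (35 genes) and those with 15 or more of -0.05 (19 genes). The Spearman correlation of log2 fold change with the number of fingers was 0.04 over the 120 genes, so the medians did not follow the count of fingers in order. The KRAB genes also had a lower median level (36.4 against 73.4 CPM) and a shorter median transcript (3940 against 5166 bases) than the others.

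**Figure D4:**
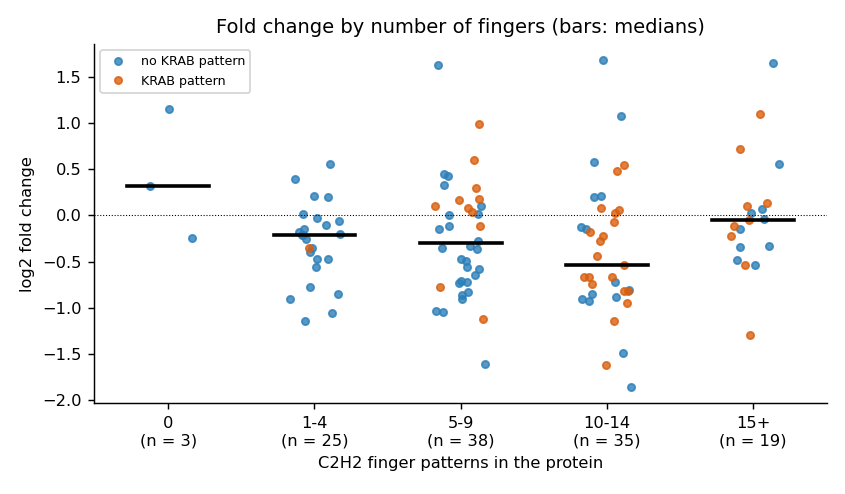
Log2 fold change (vertical axis) of the 120 Zfp genes by number of C2H2 finger patterns in the protein (horizontal axis), with KRAB genes in orange, others in blue and black bars at the medians. The medians run 0.32, -0.21, -0.30, -0.54 and -0.05 from no finger to 15 or more, with wide overlap between the classes.

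The bases that code for the linkers between fingers were compared across the genes. Linkers were found by a fixed protein pattern, so likeness over these bases is partly set by the search and says nothing of the whole transcripts. With genes of 1 chromosome left out, 404 linkers of the conserved type were found in 74 of the genes, made of 282 distinct 21-base sequences, and 154 of the linkers had the same bases as a linker of another gene among the 120. The lines below give 1 linker of the called KRAB gene Zfp871, of Zfp869 and Zfp148 from the lower side, and of Zfp62 and Zfp952 from the higher side, on the coding strand 5′ to 3′ in GRCm38. These genes hold 5 (Zfp871), 9 (Zfp869), 3 (Zfp148), 12 (Zfp62) and 7 (Zfp952) such linkers, and the one shown for each is that found in the most of the 120 genes, so it is not typical of the gene's linkers. Capitals mark the 15 bases of the linker core between the last histidine of a finger and the first aromatic residue of the next.
Zfp871 (chr17:32775285-32775305, minus strand): cacACGGGAGAGAAACCTtat
Zfp869 (chr8:69706542-69706562, minus strand): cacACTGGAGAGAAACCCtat
Zfp148 (chr16:33495422-33495442, plus strand): cacAGTGGAGAGAAGCCTtat
Zfp62 (chr11:49215855-49215875, plus strand): cacACAGGGGAGAAGCCCtat
Zfp952 (chr17:33003617-33003637, plus strand): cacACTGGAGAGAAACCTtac
The linker shown for Zfp869 was also present in Zfp617, Zfp811 and Zfp952, whose log2 fold changes were 0.08, 0.02 and 0.99, against -1.14 for Zfp869. For 35 of the 120 genes another gene held a near-identical stretch (200 bases or longer, 95% identity or higher). Their counts are uncertain where reads could be split. The search covered both strands and was not limited to Zfp genes. For some, such as Zfp367, Zfp280d and Zfp532, the stretch lay in a gene overlapping on the opposite strand. Such genes are also among the opposite-strand overlaps counted below. The median log2 fold change was -0.34 for these 35 and -0.18 for the other 85. Exons of 12 genes overlapped another gene on the same strand and those of 32 a gene on the opposite strand, and whether counting used strand is not given in the sources used here.

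Transcript length moved with the fold change. The 60 Zfp genes with the longer transcripts had a median log2 fold change of -0.35, with 49 of 60 below 0 and both genes that passed, and the 60 with the shorter ones had a median of -0.04, with 31 of 60 below 0. The protein-coding genes with the same count minimum split at the same length had medians of -0.21 and 0.19, with 65.4% and 38.1% below 0. The Spearman correlation with transcript length was -0.27 over the 120 genes and -0.39 over 6980 comparison genes with an annotated length. With GC content it was 0.15 and 0.32, and the Zfp genes had a median GC content of 45.1% against 48.8%. With offsets for length and GC content in each library, the median of the 120 genes was -0.03, with 66 of 120 below 0 and 0 passing edgeR's test in either direction, while the comparison genes had a median of 0.07. Over all genes, 0.0323% were lower and 0.258% higher with those offsets. The median of the 32 genes at 100 CPM or more was -0.21 with the offsets, against -0.00 for the comparison genes at that level. Whether length or GC content brought about the difference was not tested.

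**Figure D5:**
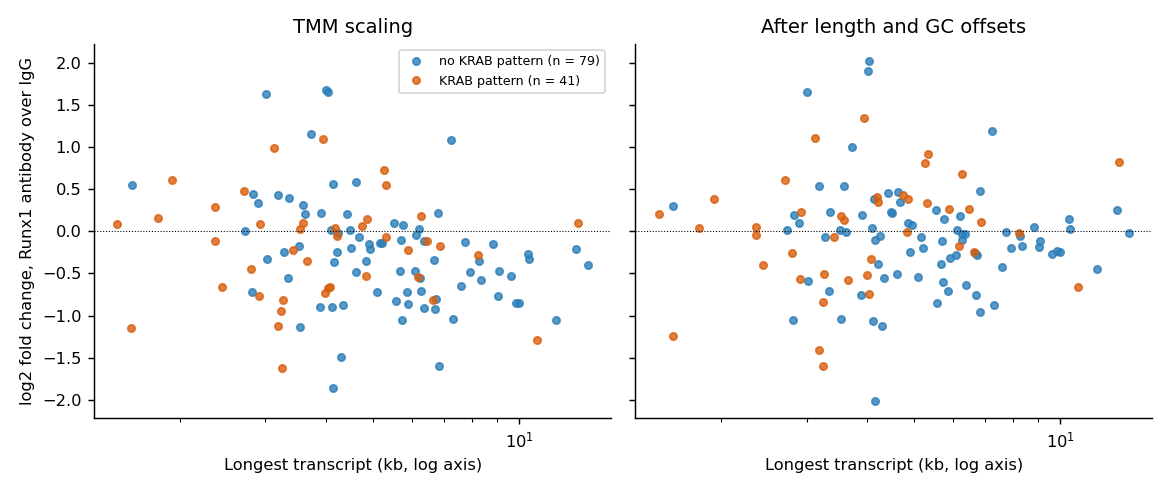
Log2 fold change (vertical axis) against the length of the longest transcript (kb, log axis) for the 120 Zfp genes, with KRAB genes in orange and others in blue, for TMM scaling (left) and for length and GC offsets (right). The Spearman correlation is -0.27 at the left and -0.05 at the right.

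Of the genes with known chromatin and transcription roles described next, 0 passed edgeR's test, while DESeq2 called Zfp532 lower. Zfp532, Zfp592 and Zfp687 encode partners of ZMYND8. Zfp532 stood at 97.3 and 154 CPM in the Runx1 libraries and 237 and 233 CPM in the IgG libraries, without overlap, a log2 fold change of -0.93 ± 0.27 and an edgeR adjusted p of 0.186. Zfp592 stood at 24.5 and 21.2 CPM against 53.6 and 38.3 CPM, and Zfp687 at 47.2 and 59.3 CPM against 55.2 and 60.4 CPM. The Runx1 pair was below the IgG pair for Zfp592, and the pairs overlapped for Zfp687. Zfp638, which silences unintegrated retroviral DNA with the HUSH complex, stood at 170.1 and 118 CPM against 240.4 and 241 CPM, a log2 fold change of -0.77 ± 0.25. Zfp638 shares near-identical stretches with 5 other genes. Zfp462, which works with G9a and GLP in embryonic stem cells, stood at 436 and 368 CPM against 531 and 456 CPM, a log2 fold change of -0.33 ± 0.17. The Runx1 libraries were below the IgG libraries for both of these genes, and with length and GC offsets the log2 fold changes were -0.19 for Zfp638 and 0.02 for Zfp462. Zfp217 (a corepressor component), Zfp281 (a pluripotency factor) and Zfp219 (a partner of Sox9 in cartilage) had log2 fold changes of -0.47 ± 0.38, -0.21 ± 0.34 and -0.33 ± 0.39. Zfp706, which promotes exit from the pluripotent state, had one of 0.20 ± 0.37 and shares near-identical stretches with 10 other genes.

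Zfp445, Zfp568 and Zfp809 are KRAB genes with known targets, and none of them passed the edgeR test. Zfp445, which maintains imprints, stood at 66.9 and 35.0 CPM against 83.8 and 60.4 CPM, a log2 fold change of -0.54 ± 0.44. That value ranged from -1.10 to -0.16 when 1 library was left out and was -0.18 with length and GC offsets. Zfp568, which represses a placental transcript of Igf2, stood at 98.5 and 113 CPM against 97.3 and 139 CPM, a log2 fold change of -0.18 ± 0.31. Zfp809, which silences retroviruses in embryonic stem cells, stood at 20.3 and 12.7 CPM against 11.2 and 17.7 CPM, a log2 fold change of 0.16 ± 0.71. The values overlapped between antibodies for all 3 of these genes.

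Among genes tied to lineage, Zfp521 and Zfp423, related partners of EBF factors in progenitors and fat cells with 27 finger patterns each, had values that overlapped between antibodies. Zfp521 stood at 78.2 and 134 CPM against 101 and 103 CPM, and Zfp423 at 81.8 and 129.8 CPM against 91.1 and 139.8 CPM. For Zfp423 the spread within each antibody was wider than the difference between antibodies. Zfp516 (brown fat), Zfp318 (IgD expression in B cells) and Zfp608 (Rag genes in thymocytes) had log2 fold changes of -0.13 ± 0.27, -0.21 ± 0.44 and -0.47 ± 0.29. Zfp407, with 22 finger patterns, had one of -0.49 ± 0.44, which ranged from -1.22 to -0.03 when 1 library was left out, and Zfp830, needed by the early embryo, one of 0.55 ± 0.50.

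Among genes whose products act on RNA, ribosomes or protein turnover, besides Zfp451, none passed the edgeR test. Zfp106, an RNA-binding protein of motor neurons and muscle, stood at 244 and 227 CPM against 294 and 348 CPM, without overlap, a log2 fold change of -0.47 ± 0.19 and an edgeR adjusted p of 0.315, and one of -0.12 with length and GC offsets. Zfp326 (the DBIRD complex of splicing and elongation), Zfp598 (a ubiquitin ligase for collided ribosomes), Zfp622 (maturation of the large ribosomal subunit) and Zfp91 (a ubiquitin ligase) had log2 fold changes of -0.06 ± 0.33, 0.40 ± 0.60, 0.01 ± 0.61 and 0.10 ± 0.42. Their standard errors allow changes of either sign. The 56 genes with values named here leave 64 others, whose log2 fold changes ran from -1.05 to 0.72 with 43 below 0, whose mean levels ran from 14.3 to 679.6 CPM and whose lowest edgeR adjusted p was 0.212.

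The Zfp genes lay on 20 chromosomes, and 25 of them lay within 200 kb of another. The median log2 fold change was -0.18 for the clustered genes, with 13 of 25 below 0, and -0.22 for the 95 others, with 67 below 0. Chromosome 7 held the most, 17 genes with a median of 0.06, and the 12 on chromosome 8 had a median of -0.03, against -0.58 for the 9 on chromosome 6 and -0.61 for the 6 on chromosome 13. The genes named next were chosen by position after their values were seen. In the chromosome 6 cluster, Zfp398, Zfp282, Zfp777 and Zfp746 had log2 fold changes of -0.58 ± 0.33, -0.83 ± 0.46, -1.12 ± 0.51 and -0.36 ± 0.54, and Zfp956 one of 0.45 ± 0.73. Zfp811, the neighbour of Zfp871 on chromosome 17, stood at 51.9 and 17.0 CPM against 29.9 and 36.3 CPM, a log2 fold change of 0.02 ± 0.62. Zfp866, the neighbour of Zfp869 on chromosome 8, stood at 25.7 and 19.6 CPM against 52.0 and 84.6 CPM, a log2 fold change of -1.62 ± 0.48. A near-identical stretch of Zfp866 lies in 1 other gene, which overlaps it on the same strand. Zfp871 and Zfp811 lay on opposite sides of 0 and Zfp869 and Zfp866 on the same side, and differences between neighbours were not tested. Of the genes that DESeq2 called but edgeR did not, Zfp775 and Zfp770 were named after their values were seen. Zfp775 stood at 14.3 and 17.0 CPM against 39.8 and 71.7 CPM (log2 fold change -1.85 ± 0.54), and Zfp770 at 23.9 and 24.4 CPM against 69.0 and 64.1 CPM (-1.49 ± 0.44), without overlap in either. Zfp775 shares a near-identical stretch with 1 other gene and overlaps exons of other genes on the same strand, so its counts are uncertain.

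Genes of the proteins that work beside the Zfp family were read from separate lists. Of 26 tested genes of the KRAB corepressor machinery, 0 passed in either direction by edgeR, with 2 on each side at an unadjusted p under 0.05, and the median log2 fold change was -0.23. Over all genes tested, 7.35% were lower and 6.88% higher at that unadjusted level. Both DESeq2 and limma-voom called Cbx5 lower and no other gene of that list. Over all genes with an adjusted p, DESeq2 called 6.07% lower and 4.34% higher, and limma-voom 0.968% and 0.823%. The counts for the lists are out of all listed genes tested, with or without a DESeq2 adjusted p. Cbx5, the heterochromatin protein HP1 alpha, came nearest, at 1218 and 1288 CPM against 1823 and 1819 CPM, a log2 fold change of -0.57 ± 0.10 and an edgeR adjusted p of 0.0513. Atf7ip, a partner of the methyltransferase SETDB1, had a log2 fold change of -0.49 ± 0.18, and Mphosph8, a HUSH subunit, one of 0.76 ± 0.29. Of 79 tested C2H2 genes with other names, 0 passed, with 3 higher and 10 lower at that unadjusted level, and the median was -0.003. DESeq2 called 6 of them lower and limma-voom 2, beside the shares of 6.07% and 0.968% over all genes. The smallest p values there were those of Zfhx3 (-0.66 ± 0.13), Peg3 (-0.50 ± 0.11) and Adnp2 (-1.39 ± 0.36). Of 34 tested genes with a BTB domain, 0 passed, with 0 higher and 5 lower at that level, and the median was -0.44, with Zbtb10 at -1.19 ± 0.27, Zbtb18 at -0.82 ± 0.24 and Hic2 at -0.99 ± 0.36. DESeq2 called 2 of the BTB genes lower and limma-voom 0, beside the same shares of 6.07% and 0.968%. Of 38 tested CCCH genes, whose fingers bind RNA, edgeR called 1 lower and 0 higher, beside 0.339% and 0.306% of all genes, with 9 lower and 3 higher at that unadjusted level and a median of -0.26. DESeq2 called 4 of the CCCH genes lower and 1 higher, and limma-voom 2 lower and 0 higher. The shares over all genes were again 6.07% and 4.34% with DESeq2 and 0.968% and 0.823% with limma-voom. Rc3h1 (Roquin-1, which promotes decay of target mRNAs) stood at 294 and 279 CPM against 582 and 629 CPM, a log2 fold change of -1.11 ± 0.16 and an edgeR adjusted p of 0.0296. Zc3h4 and Zc3h13 had log2 fold changes of -1.08 ± 0.21 and 0.88 ± 0.24 and did not pass the edgeR test, while DESeq2 called both and limma-voom called Zc3h4. Rc3h1 did not pass with length and GC offsets (log2 fold change -0.53) or with a replicate block (-1.11). The median log2 fold change of all genes tested was 0.03, and 0.05 with those offsets. With the offsets the list medians were -0.02 for the KRAB machinery and 0.14 for the C2H2 genes with other names. They were -0.14 for the BTB genes and -0.25 for the CCCH genes.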

How the data were processed

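The authors deposited 1 table of raw counts per gene, with 1 column per library and no normalization. The tools are named per the submitters' processing notes as STAR 2.7.3a, Salmon 1.1.0 and Trimmomatic 0.36, with the build mm10 and no order. Annotation, strand setting and filters were not given in the sources used here. Identifiers were matched to GENCODE M21, which held 55480 of 55573, and the 92 spike-in rows entered neither library sizes nor tests. The test was edgeR 4.0.16 under R 4.3.3 (TMM, default filter with a minimum count of 10 and total of 15, quasi-likelihood, two-sided, no block) on the whole table, and the standard errors are those implied by the test statistic. Groups and replicate numbers came from the titles. At these depths 3 counts stand for 0.781 to 1.79 CPM. Error at such floors can exceed counting error, and its size was not tested. The biological coefficient of variation was 46.1%, which limits what 2 libraries against 2 can show, and an exact permutation test of 2 against 2 cannot give a two-sided p below 0.333.

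Transcript lengths, GC content and coding sequences came from the longest transcripts of GENCODE M21, and finger, linker and KRAB patterns were counted in the translated coding sequences, in place of the RefSeq proteins first planned. A finger pattern was a C2H2 spacing pattern, and a diverged KRAB domain can miss the A box pattern used. Near-identical stretches were found with blastn 2.17.0 on both strands, with genes that overlap at the same place left in. Alternatives were DESeq2 1.42.0, limma-voom with limma 3.58.1, DESeq2 size factors, library totals, spike-in scaling, other filters, a replicate block, each library left out, and per-library offsets fitted to length and GC content by natural splines of 5 degrees of freedom. Named genes were those that passed, the 10 with the smallest p on each side, the 6 highest per kb, and a list with known roles, and, from the partner lists, those that passed and up to 3 with the smallest p. The members and lists were chosen with earlier results of these data known. One marker of the erythroid list is not reported here.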

Additional observations from a re-analysis of the deposited data

How the results depend on the processing

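The count of Zfp genes called lower, 2 by the edgeR fit, was 14 with DESeq2, 5 with limma-voom, 10 with no low-count filter, 6 with at least 10 counts in all libraries, 72 with spike-in scaling and 0 with length and GC offsets, and it ranged from 2 to 11 when 1 library was left out (11 without Runx1 replicate 1 and 5 without Runx1 replicate 2). The count called higher, 0, ranged from 0 to 1 when 1 library was left out, the 1 gene being Zfp260 without Runx1 replicate 2 or IgG replicate 1. Over all 12401 genes tested, the edgeR fit gave 38 higher and 42 lower, and spike-in scaling 19 and 3914. The offsets gave 32 and 4 of 12396 genes. No low-count filter gave 224 and 325, and at least 10 counts in all libraries 125 and 160. Both of these filters changed the number of genes tested, so their counts are not shares of 12401. Leaving out Runx1 replicate 1 gave 248 and 352, and leaving out Runx1 replicate 2 gave 161 and 220. For IgG, 114 and 85 were called once replicate 1 was dropped, or 94 and 80 once replicate 2 was dropped. Spike-in scaling moved the median of all genes to -1.25, so the Zfp genes, at -1.51, are to be read relative to it. The spike-in rows held only 434 to 713 counts per library. The median of the Zfp genes, -0.22, was -0.19 with library totals, -0.26 with no low-count filter, -0.28 with limma-voom, -0.034 with the offsets, -0.35 for the 74 genes at 50 or more counts in every library and -0.18 for the 85 with no near-identical stretch, and it ranged from -0.37 to -0.27 when 1 library was left out. The replicate numbers do not pair the libraries in the labels, and the deviations of same-numbered libraries had a correlation of 0.0044, so the replicate block is a check only. With the replicate block, 0 Zfp genes were called lower, the median was -0.28, and over all genes 2 were higher and 0 lower. The number of Zfp genes below 0 stayed within 66 to 117 of 120 in every alternative run. With 1 library left in an arm, that library is assumed to vary like the other group.

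The values that follow are log2 fold changes of named genes. With spike-in scaling, the sign was reversed for Zfp780b (-0.20), Zfp839 (-0.19), Zfp536 (-0.70), Zfp319 (-0.25), Zfp422 (-0.85), Zfp952 (-0.22), Zfp1 (-0.60), Zfp830 (-0.71), Zfp598 (-0.88), Zfp706 (-1.03), Zfp91 (-1.13), Zfp809 (-1.05), Zfp521 (-1.26), Zfp622 (-1.35), Zfp956 (-0.92), Zfp811 (-1.21), Mphosph8 (-0.51), Zc3h13 (-0.40). With length and GC offsets, the sign was reversed for Zfp618 (0.0543), Zfp462 (0.0237), Zfp281 (0.0762), Zfp568 (0.11), Zfp318 (0.25), Zfp326 (0.35). With library totals alone, the sign was reversed for Zfp740 (0.00314). With limma-voom, the sign was reversed for Zfp521 (-0.00619), Zfp811 (-0.18). With no low-count filter, the sign was reversed for Zfp521 (-0.0140), Zfp622 (-0.0367), Zfp811 (-0.0174). With the replicate block, the sign was reversed for Zfp521 (-0.0253), Zfp811 (-0.15). When 1 library was left out, values ranged from -0.0942 to 2.38 for Zfp143, from -0.0453 to 1.84 for Zfp319, from -0.0249 to 1.01 for Zfp1, from -0.24 to 0.20 for Zfp740, from -0.31 to 0.00382 for Zfp618, from -0.40 to 0.88 for Zfp598, from -0.56 to 0.0426 for Zfp281. In the same fits, values ranged from -0.43 to 0.0823 for Zfp568, from -0.12 to 0.57 for Zfp706, from -0.48 to 0.10 for Zfp516, from -0.62 to 0.0727 for Zfp318, from -0.55 to 0.18 for Zfp423, from -0.19 to 0.42 for Zfp91, from -0.23 to 0.51 for Zfp809. They also ranged from -0.39 to 0.17 for Zfp326, from -0.44 to 0.33 for Zfp521, from -0.52 to 0.84 for Zfp622, from -0.0639 to 1.22 for Zfp956, from -0.88 to 0.17 for Zfp746, from -1.02 to 0.60 for Zfp811. The cause of these changes was not tested, and spike-in scaling applies 1 factor per library and so shifts the genes together.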
